A study of Homo sapiens with 12 samples.

Results

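The 9 genes described here encode receptors by which leukocytes and leukaemic blasts enter and hold on in the bone marrow: the chemokine receptor CXCR4, the selectin ligand PSGL-1 (gene SELPLG), the hyaluronan receptor CD44, and the integrin chains ITGAL, ITGB2, ITGA4, ITGA5, ITGB1 and ITGA2B. They were taken by gene symbol, by a rule that uses no measured value, although earlier results of these data were known when they were chosen. All 9 were found in both count tables, which hold 17099 genes for OCI-AML2 and 16820 for MOLM-13, 15615 of them in common. OCI-AML2 and MOLM-13 are established human acute myeloid leukaemia cell lines, and each was cultured for 36 h with DMSO as the vehicle or with selinexor. Selinexor is an oral inhibitor of XPO1, the receptor that carries proteins and some RNAs out of the nucleus. The dose was 200 nM in OCI-AML2 and 75 nM in MOLM-13, so an effect of the line and an effect of the dose cannot be told apart. RNA-seq was done on 3 libraries per group, 4 groups in all, which the submitters describe as biologically independent. No genetic change was introduced, each line is a single culture source, and no stromal or endothelial cells were present, so that only the mRNA of these receptors was measured and not their surface protein, activation state or use in homing.

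CXCR4 responds to the chemokine CXCL12, which marrow stroma produces and which draws haematopoietic and leukaemic cells into the marrow and keeps them there. PSGL-1 and glycoforms of CD44 bind selectins on marrow endothelium and slow the cell, after which the integrins LFA-1 (ITGAL with ITGB2), VLA-4 (ITGA4 with ITGB1) and VLA-5 (ITGA5 with ITGB1) bind ICAM proteins, VCAM1 and fibronectin. ITGA2B is the alpha chain of the platelet fibrinogen receptor, which needs ITGB3 as its partner and marks the megakaryocyte lineage.

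The upstream sequences of CXCR4 and ITGA2B are shown because these are the members with the largest rises in OCI-AML2. Each run is the 250 bases before the first start site listed, on the gene's own strand (minus for both), from RefSeq (GRCh38.p14): chr2:136118150-136118399 for CXCR4 and chr17:44389650-44389899 for ITGA2B. Capitals mark matches to 5 motifs, searched on both strands: the GC box GGGCGG, the TATA box TATAAA, the GATA motif AGATAA, the ETS motif GGAAGTG and the cAMP response element TGACGTCA.
CXCR4: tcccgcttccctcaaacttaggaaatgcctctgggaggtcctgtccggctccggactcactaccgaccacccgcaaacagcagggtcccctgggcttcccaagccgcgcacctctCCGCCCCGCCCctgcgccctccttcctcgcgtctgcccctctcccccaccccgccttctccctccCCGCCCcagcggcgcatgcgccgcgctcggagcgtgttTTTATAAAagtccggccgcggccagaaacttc
ITGA2B: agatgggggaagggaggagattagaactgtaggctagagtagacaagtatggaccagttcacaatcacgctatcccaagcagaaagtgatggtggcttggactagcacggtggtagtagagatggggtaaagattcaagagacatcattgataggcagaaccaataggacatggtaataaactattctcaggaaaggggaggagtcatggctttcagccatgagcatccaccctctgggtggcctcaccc
In the CXCR4 window GC boxes lay at -135 to -130, -130 to -125 and -70 to -65 relative to the start, the first 2 of them overlapping by 1 base, and a TATA box on opposite strands at -32 to -27 and -30 to -25, these matches overlapping each other. None of the 5 motifs was found in its exact letters in the ITGA2B window, and variants of the letters were not searched. In the gene annotation given further below, ITGA2B starts at position 44389505, and the nearest base of the window is 44389650. The bases between these positions were not searched. The absence of motifs therefore holds for this window only and not for the bases just before that annotated start. CXCR4 has 3 listed start sites, and of the windows not shown, that of site 2 held none of the motifs and that of site 3 held 1 GC box. Among all 35116 promoter windows of that length, 42.6% held the GC box, 10.7% the TATA box, 9.17% the GATA motif, 9.28% the ETS motif and 1.65% the cAMP response element. These matches describe letters in a window, and no binding was measured. Of the 9 members, 6 had an entry in the promoter table. Of the other windows at a first start site, those of CD44, ITGA5 and ITGB1 held GC boxes, that of ITGB1 also held an ETS motif, and that of ITGA4 held none of the motifs.

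Total counts per library ranged from 9506571 to 11769061 in OCI-AML2 with vehicle, 8650518 to 9774423 in OCI-AML2 with selinexor, 8160133 to 9444344 in MOLM-13 with vehicle and 8114892 to 9711704 in MOLM-13 with selinexor. Levels are given as CPM, counts relative to the scaled library total of the line, so levels set across lines are approximate and the tests between lines come from a joint scaling. On that scale 3 counts equal 0.249 to 0.374 CPM depending on the library, a floor for counting error only. XPO1 mRNA was higher with selinexor by 0.63 ± 0.040 (log2, SE) in OCI-AML2 and 0.66 ± 0.035 in MOLM-13. All 9 myeloid markers listed had counts in every group, and their summed level was 2955 to 3163 CPM with vehicle and 11282 to 11557 CPM with selinexor in OCI-AML2. In MOLM-13 it was 1372 to 1387 CPM with vehicle and 2986 to 3026 CPM with selinexor. Most of this change came from LYZ, the lysozyme of granulocytes and monocytes, whose mean was 1733 CPM with vehicle and 9571 CPM with selinexor in OCI-AML2, and 116 against 957 CPM in MOLM-13. The markers did not all rise. In OCI-AML2, 6 of the 9 were called higher (edgeR adjusted p under 0.05), MPO was called lower, and CD33 and CSF1R were not called. In MOLM-13, 6 of the 8 tested were called higher and 0 lower. Over all genes tested, 31.3% were higher and 31.8% lower in OCI-AML2, and 31.8% each way in MOLM-13. The part of the change in myeloid markers in the receptor results was not tested. Summed markers of other lineages were low, at 11.5 to 20.9 CPM for 10 lymphocyte genes, 10.1 to 30.6 CPM for 8 erythroid genes and 0.417 to 3.34 CPM for 8 stromal or endothelial genes over all 12 libraries. Of these sums, the lymphocyte one separated the treatments in OCI-AML2 (11.5 to 13.3 CPM with vehicle, 17.8 to 20.9 CPM with selinexor), and the others overlapped in both lines, as the lymphocyte sum did in MOLM-13. In bulk RNA, more cells with a transcript and more transcript per cell cannot be told apart.

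CXCR4, SELPLG, ITGA5, CD44 and ITGB2 mRNA rose with selinexor in both lines, from 4.03-fold for CXCR4 in OCI-AML2 to 1.11-fold for ITGB2 in MOLM-13. In OCI-AML2 all 9 members passed the test (edgeR's quasi-likelihood F test, Benjamini-Hochberg adjusted p under 0.05 over the whole table), 6 higher and 3 lower, where 63.1% of all 12086 genes tested passed, 31.3% higher and 31.8% lower. In MOLM-13, 6 of the 8 members tested passed, 6 higher and 0 lower, where 63.6% of 11807 genes passed, 31.8% in each direction. ITGA2B was too scarce there to be tested. The vehicle and selinexor libraries did not overlap for 8 of the 9 members in OCI-AML2 (6 higher, 2 lower), beside 66.3% of all genes, 33.0% higher and 33.3% lower, and for 6 of 8 in MOLM-13 (6 higher, 0 lower), beside 65.5%, 32.7% higher and 32.8% lower. The median log2 fold change of the members was 0.19 in OCI-AML2 and 0.22 in MOLM-13, beside -0.0016 and 0.0091 over all genes tested. A passed test is therefore common in these data, and the sizes below carry the difference between the members.

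**Figure D1:**
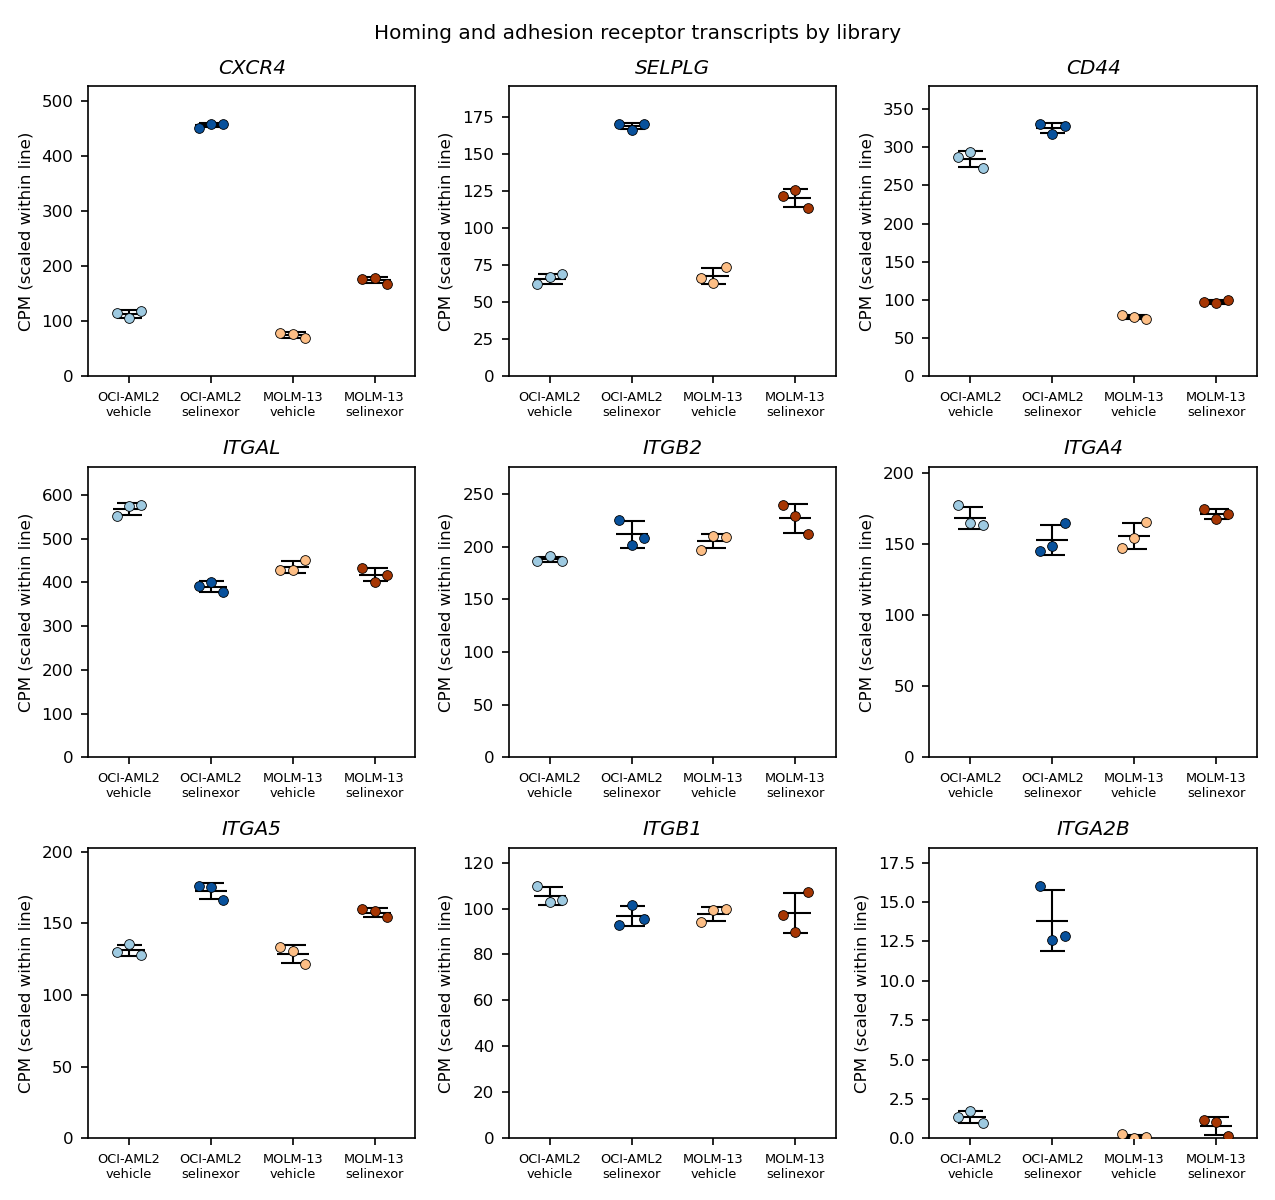
Level of each receptor gene in every library (CPM scaled within a line, linear axis from 0, with its own range in each panel). Points are the 3 libraries of each of the 4 groups, and bars are the group mean ± SD; CXCR4 and SELPLG show wide gaps between vehicle and selinexor in both lines, and ITGA2B lies near 0 in MOLM-13.

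CXCR4, the receptor for CXCL12, showed the largest rise of any abundant member. In OCI-AML2 it measured 115, 106 and 119 CPM in the vehicle libraries and 451, 458 and 457 CPM in the selinexor libraries. In MOLM-13 it measured 78.8, 76.4 and 68.9 CPM with vehicle and 177, 178 and 168 CPM with selinexor. The groups did not overlap in either line, and each MOLM-13 value with selinexor lay above each OCI-AML2 value with vehicle. The log2 fold change was 2.01 ± 0.044 (SE; 4.03-fold, edgeR adjusted p = 2.4e-34) in OCI-AML2 and 1.22 ± 0.052 (2.34-fold, adjusted p = 4.4e-40) in MOLM-13. The rise was smaller in MOLM-13 by 0.84 on the log2 scale: the interaction of line and treatment was -0.84 ± 0.068 (edgeR adjusted p = 3.0e-18).

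SELPLG encodes PSGL-1, a mucin-type ligand for selectins. Its vehicle libraries stood at 62.4, 66.8 and 69.0 CPM and its selinexor libraries at 171, 167 and 171 CPM in OCI-AML2. In MOLM-13 the values were 66.7, 63.0 and 73.8 CPM with vehicle and 122, 126 and 114 CPM with selinexor. The lines started from overlapping levels with vehicle, and with selinexor every OCI-AML2 library was above every MOLM-13 library. SELPLG rose by 1.36 ± 0.053 in OCI-AML2 (2.56-fold, edgeR adjusted p = 3.8e-25) and by 0.83 ± 0.058 in MOLM-13 (1.78-fold, adjusted p = 2.1e-24). The difference between these responses was -0.58 ± 0.080 (adjusted p = 8.8e-09).

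CD44, which binds hyaluronan and in a glycosylated form E-selectin, was the member whose level depended most on the line among those above 10 CPM. It measured 287, 294 and 273 CPM with vehicle and 330.5, 318 and 328 CPM with selinexor in OCI-AML2. In MOLM-13 it measured 79.9, 78.2 and 74.7 CPM with vehicle and 96.9, 95.5 and 100.5 CPM with selinexor. The treatments did not overlap within a line, yet the gap between the lines was far wider than either shift. CD44 rose by 0.19 ± 0.041 in OCI-AML2 (1.14-fold, edgeR adjusted p = 7.5e-05) and by 0.33 ± 0.057 in MOLM-13 (1.26-fold, adjusted p = 3.1e-07). The difference of these responses did not pass the test (0.09 ± 0.066, adjusted p = 0.31), although it passed under 3 of 16 alternative settings. The CD44 counts are for the gene as a whole, and its splice forms were not resolved.

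**Figure D2:**
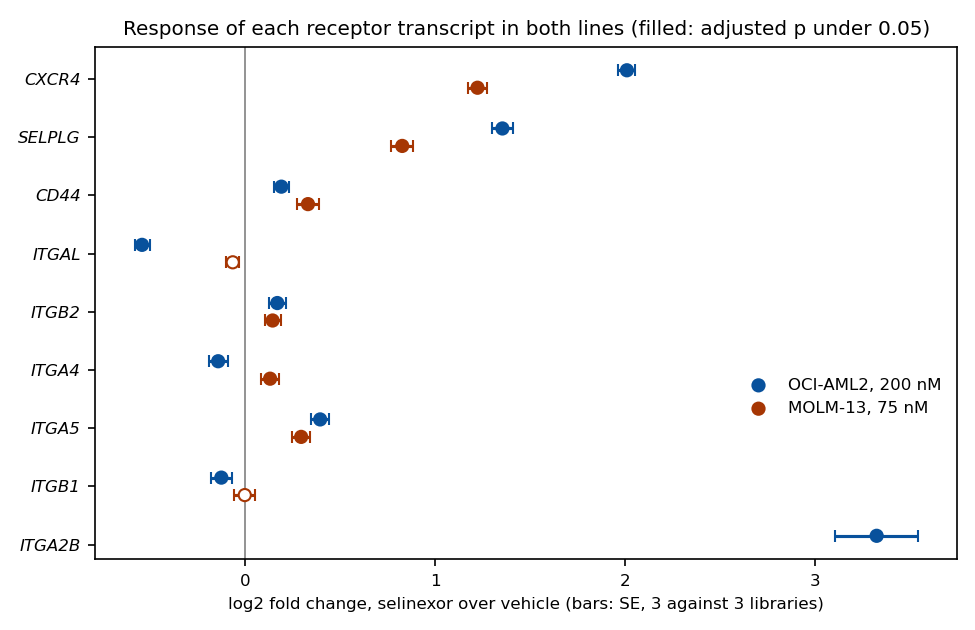
Selinexor against vehicle for each receptor gene (log2 fold change; bars are 1 SE; blue is OCI-AML2 and brown MOLM-13; filled points passed the test; 3 libraries per group). CXCR4 and SELPLG lie farther right in OCI-AML2 than in MOLM-13, ITGAL lies at -0.54 in OCI-AML2 against -0.06 in MOLM-13, and ITGA2B has no MOLM-13 point because it was not tested there.

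The chains of LFA-1, the integrin that binds ICAM proteins, changed in opposite directions in OCI-AML2, the more abundant ITGAL falling and ITGB2 rising. ITGAL, the alpha chain, measured 551, 575 and 577 CPM with vehicle and 391, 402 and 378 CPM with selinexor in OCI-AML2. In MOLM-13 ITGAL measured 428, 428 and 452 CPM with vehicle and 432, 402 and 418 CPM with selinexor. All OCI-AML2 selinexor values were below all vehicle values of that line, while the MOLM-13 groups overlapped. ITGAL fell by 0.54 ± 0.039 on the log2 scale in OCI-AML2 (edgeR adjusted p = 6.1e-16), and its MOLM-13 change of -0.06 ± 0.035 did not pass (adjusted p = 0.11). The responses differed by 0.43 ± 0.054 (adjusted p = 4.1e-10). The MOLM-13 value is unsettled: it passed under 2 of 11 alternatives, with no filter on low counts and without selinexor library 1, and it was 0.0065 (adjusted p = 0.884) with upper quartile scaling.

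ITGB2, the beta chain of LFA-1 and of the other leukocyte integrins, measured 187, 191 and 187 CPM with vehicle and 226, 201 and 208 CPM with selinexor in OCI-AML2. In MOLM-13 it measured 197, 210.1 and 209 CPM with vehicle and 239.7, 229 and 212 CPM with selinexor. The treatments did not overlap in either line, by a margin of about 2 CPM in MOLM-13. ITGB2 rose by 0.17 ± 0.045 in OCI-AML2 (edgeR adjusted p = 0.0011) and by 0.15 ± 0.042 in MOLM-13 (adjusted p = 0.0017). Without selinexor library 1 the MOLM-13 rise did not pass (adjusted p = 0.0538). Scaled to exon length, ITGAL stood at 3.17 ± 0.0759 (SD, n = 3) times ITGB2 with vehicle and 1.94 ± 0.141 times with selinexor in OCI-AML2. In MOLM-13 the ratio was 2.23 ± 0.0787 with vehicle and 1.93 ± 0.119 with selinexor. The groups did not overlap in either line, and with selinexor the ranges of the lines overlapped.

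The alpha chain of VLA-4, ITGA4, moved in opposite directions in the lines, by small amounts. In OCI-AML2 it measured 177, 165 and 163 CPM with vehicle and 145, 148 and 165 CPM with selinexor. In MOLM-13 it measured 147, 154 and 165 CPM with vehicle and 174, 167 and 171 CPM with selinexor. Selinexor library 3 of OCI-AML2 lay within the vehicle range, and the MOLM-13 groups did not overlap. ITGA4 fell by 0.14 ± 0.050 in OCI-AML2 (edgeR adjusted p = 0.014) and rose by 0.13 ± 0.046 in MOLM-13 (adjusted p = 0.0082), and the difference was 0.22 ± 0.069 (adjusted p = 0.0083). The OCI-AML2 fall held in 5 of 11 alternatives: it was lost with upper quartile scaling, with DESeq2, in a fit over all 12 libraries, and without vehicle library 1 or selinexor library 1 or 2 (adjusted p from 0.0027 to 0.13 over the alternatives). The MOLM-13 rise was lost without vehicle library 1 (adjusted p = 0.101), and the difference between the lines passed in all 16 alternatives run (adjusted p from 4.2e-05 to 0.045).

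ITGA5, the alpha chain of the fibronectin receptor VLA-5, rose in both lines. It measured 130.0, 136 and 128 CPM with vehicle and 176, 176 and 166 CPM with selinexor in OCI-AML2. In MOLM-13 it measured 134, 130.4 and 121 CPM with vehicle and 159.8, 159 and 154 CPM with selinexor. The vehicle levels of the lines overlapped, and the treatments did not overlap in either line. The rise was 0.40 ± 0.048 in OCI-AML2 (1.32-fold, edgeR adjusted p = 1.2e-09) and 0.30 ± 0.048 in MOLM-13 (1.23-fold, adjusted p = 4.8e-08), and the difference of -0.15 ± 0.068 between them did not pass (adjusted p = 0.089; it passed under 1 of 16 alternatives, without MOLM-13 vehicle library 3).

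ITGB1, the beta chain that VLA-4 and VLA-5 share, changed least. It measured 109.8, 103 and 104 CPM with vehicle and 92.9, 101 and 95.5 CPM with selinexor in OCI-AML2, and the groups did not overlap. In MOLM-13 it measured 94.3, 99.1 and 99.7 CPM with vehicle and 97.3, 89.7 and 107 CPM with selinexor, and the groups overlapped. The log2 fold change was -0.12 ± 0.055 in OCI-AML2 (edgeR adjusted p = 0.048) and -0.0007 ± 0.056 in MOLM-13 (adjusted p = 0.99). The OCI-AML2 call held in 5 of 11 alternatives and was lost with upper quartile scaling, with DESeq2, in the 12-library fit, and without vehicle library 1 or selinexor library 1 or 3 (adjusted p from 0.024 to 0.28). Scaled to exon length, ITGA5 over ITGB1 was 0.988 ± 0.0548 with vehicle and 1.42 ± 0.0740 with selinexor in OCI-AML2, and 1.04 ± 0.0798 against 1.28 ± 0.132 in MOLM-13, with no overlap in either line. ITGA4 over ITGB1 was 1.22 ± 0.0151 against 1.20 ± 0.101 and 1.21 ± 0.0428 against 1.33 ± 0.104, with overlap in both lines.

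**Figure D3:**
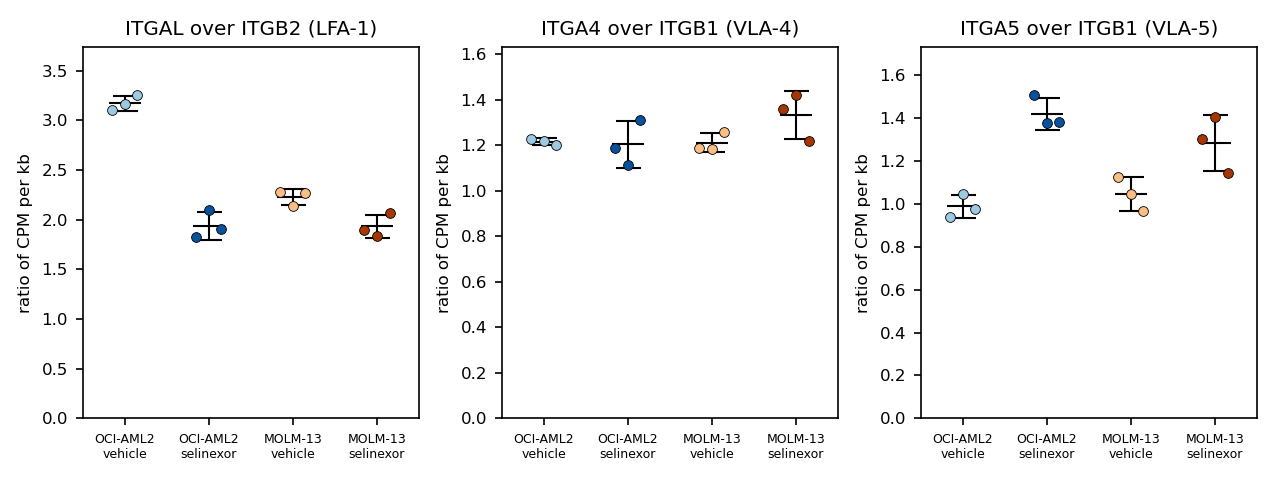
Ratios of receptor genes in each library, from CPM per kilobase of exon (linear axis from 0; points are the 3 libraries of a group and bars the mean ± SD). ITGAL over ITGB2 falls and ITGA5 over ITGB1 rises with selinexor in both lines without overlap of the treatments, whereas ITGA4 over ITGB1 overlaps in both.

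ITGA2B, the platelet integrin alpha chain, had the largest fold change of the members in OCI-AML2 from a level near the floor. Its counts were 13, 21 and 11 with vehicle (1.34, 1.74 and 0.985 CPM) and 136, 117 and 122 with selinexor (16.0, 12.6 and 12.8 CPM) in OCI-AML2. In MOLM-13 the counts were 2, 0 and 1 with vehicle and 10, 10 and 1 with selinexor. The OCI-AML2 groups were far apart, while selinexor library 3 of MOLM-13 lay within the vehicle range of 0 to 2 counts. The log2 fold change in OCI-AML2 was 3.32 ± 0.22 (edgeR adjusted p = 1.7e-17), and the pooled ratio was 10.1 (95% exact interval 7.37 to 14.0, for counting error only). In MOLM-13 the pooled ratio of 21 to 3 counts was 7.17 with an interval of 2.14 to 37.6, and no test was made there. This interval too is for counting error only and leaves out the spread between libraries (10, 10 and 1 counts with selinexor). The fitted difference between the lines was -0.67 ± 1.3 (adjusted p = 0.75), an interval wide enough that similar and different responses could not be told apart.

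ITGB3, the partner that ITGA2B needs at the surface, had at most 3 counts in any library. Of 20 genes listed as megakaryocyte and platelet markers, 16 were in the OCI-AML2 table, 7 were tested there, 2 rose (PEAR1 and NFE2) and 1 fell (MMRN1), with a median log2 fold change of 0.34. In MOLM-13, 5 were tested, 3 rose (PEAR1, NFE2 and GP1BA) and 2 fell (GP9 and TUBB1), with a median of 0.70. Over all genes 63.1% and 63.6% were called in the OCI-AML2 and MOLM-13 tables. The 2 MOLM-13 falls became 1 with upper quartile scaling, with no filter, with DESeq2, in the 12-library fit and without MOLM-13 vehicle library 1 or selinexor library 1 or 2, and 0 without vehicle library 3, and without OCI-AML2 selinexor library 3 the rises there were 1. The summed level of the list was 119 to 137 CPM with vehicle and 98.7 to 107 CPM with selinexor in OCI-AML2, opposite to ITGA2B, and in MOLM-13 it was 14.6 to 20.8 CPM with vehicle and 26.2 to 29.3 CPM with selinexor. The OCI-AML2 sum is weighted to MMRN1, which encodes a platelet and endothelial adhesion protein. MMRN1 had mean levels of 81.0 CPM with vehicle and 47.7 CPM with selinexor there, so the sum does not show how the other genes moved. PF4, GATA1 and GP6 were too scarce to be tested in either line.

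Per kilobase of exon, ITGAL led with vehicle in both lines and CXCR4 led with selinexor. The length counts all annotated exons of a gene and not the transcripts present, so orders, shares and ratios between genes are approximate. In OCI-AML2 with vehicle the order was ITGAL at 87.7 ± 2.26 CPM per kilobase (SD, n = 3), CXCR4 at 50.9 ± 3.07, CD44 at 28.5 ± 1.09, ITGB2 at 27.7 ± 0.358, SELPLG at 26.5 ± 1.36, ITGA4 at 21.3 ± 0.986, ITGB1 at 17.5 ± 0.647, ITGA5 at 17.3 ± 0.545 and ITGA2B at 0.244 ± 0.0681. Neighbours overlapped at CD44 and ITGB2, ITGB2 and SELPLG, and ITGB1 and ITGA5. With selinexor in OCI-AML2, CXCR4 stood at 205 ± 1.66 CPM per kilobase, SELPLG at 67.9 ± 0.907, ITGAL at 60.3 ± 1.84, CD44 at 32.5 ± 0.676, ITGB2 at 31.2 ± 1.86, ITGA5 at 22.8 ± 0.759, ITGA4 at 19.3 ± 1.35, ITGB1 at 16.1 ± 0.725 and ITGA2B at 2.49 ± 0.345, and only CD44 and ITGB2 overlapped as neighbours. CXCR4 was 44.8 ± 0.418% of the summed CPM per kilobase of the 9 genes there, up from 18.3 ± 1.03%, and ITGAL was 13.2 ± 0.394%, down from 31.6 ± 0.672%.

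In MOLM-13 with vehicle the order per kilobase was ITGAL at 67.3 ± 2.13, CXCR4 at 33.6 ± 2.32, ITGB2 at 30.2 ± 1.04, SELPLG at 27.2 ± 2.22, ITGA4 at 19.7 ± 1.13, ITGA5 at 17.0 ± 0.851, ITGB1 at 16.3 ± 0.489, CD44 at 7.75 ± 0.265 and ITGA2B at 0.0209 ± 0.0219. Neighbours overlapped at ITGB2 and SELPLG and at ITGA5 and ITGB1. With selinexor CXCR4 stood at 78.3 ± 2.52, ITGAL at 64.5 ± 2.34, SELPLG at 48.3 ± 2.47, ITGB2 at 33.4 ± 2.03, ITGA4 at 21.6 ± 0.438, ITGA5 at 20.8 ± 0.395, ITGB1 at 16.3 ± 1.44, CD44 at 9.76 ± 0.256 and ITGA2B at 0.139 ± 0.102, with no overlap between neighbours. CXCR4 moved from the second to the first place in each line, and its share of the 9 genes in MOLM-13 went from 15.3 ± 1.23% to 26.7 ± 0.503%. CXCR4 over ITGA4, a ratio of the chemokine receptor to the VLA-4 alpha chain, went from 2.39 ± 0.175 to 10.6 ± 0.674 in OCI-AML2 and from 1.71 ± 0.212 to 3.62 ± 0.146 in MOLM-13. CD44 over SELPLG went from 1.08 ± 0.0829 to 0.479 ± 0.00385 in OCI-AML2 and from 0.287 ± 0.0305 to 0.203 ± 0.0160 in MOLM-13, and neither ratio overlapped between treatments.

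With vehicle, 5 of the 9 members differed between the lines (1 higher and 4 lower in MOLM-13), where 71.2% of 12530 genes did, 35.0% higher and 36.2% lower. The vehicle libraries of the lines did not overlap for 6 members (1 higher and 5 lower in MOLM-13, the sixth being ITGB1), beside 72.7% of all genes, 35.7% higher and 36.9% lower. CD44 was lower in MOLM-13 (log2 difference -1.84 ± 0.047, 3.58-fold, edgeR adjusted p = 5.6e-54), as were CXCR4 (-0.56 ± 0.052, adjusted p = 4.3e-17) and ITGAL (-0.35 ± 0.038, adjusted p = 1.7e-13). ITGA2B was also lower, at 3 pooled counts against 45. ITGB2 was higher in MOLM-13 by 0.16 ± 0.045 (adjusted p = 0.00082), a call lost without MOLM-13 vehicle library 2. SELPLG, ITGA4, ITGA5 and ITGB1 did not pass (adjusted p from 0.16 to 0.92). Of the responses to selinexor, 4 of the 9 differed between the lines, CXCR4 and SELPLG lower and ITGAL and ITGA4 higher in MOLM-13, where 30.1% of 12530 genes did, 11.1% higher and 19.0% lower. The comparisons between lines and the responses within lines share the vehicle libraries.

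Of 35 genes of the wider chemokine and sphingosine phosphate axis, 25 were tested in each line. In OCI-AML2 9 rose and 8 fell (median log2 fold change 0.02), beside 31.3% and 31.8% of all genes. In MOLM-13 10 rose and 6 fell (median 0.002), beside 31.8% of all genes each way. Among genes called in both lines, CCR2, the monocyte receptor for CCL2, rose by 0.88 ± 0.053 and 1.37 ± 0.099, and CXCR2, a neutrophil receptor for CXCL8, by 1.05 ± 0.074 and 0.83 ± 0.15. S1PR3, a sphingosine 1-phosphate receptor, fell in both, from a mean of 30.7 ± 2.61 (SD, n = 3) to 10.4 ± 1.13 CPM and from 7.67 ± 0.534 to 3.98 ± 0.474 CPM. RGS18, which shortens G protein signals, rose by 1.32 ± 0.052 and 0.64 ± 0.16, and GRK5, a receptor kinase, changed by -1.58 ± 0.37 and -0.44 ± 0.13. GRK5 was scarce in OCI-AML2, at a mean of 2.46 CPM with vehicle and 0.803 CPM with selinexor. In MOLM-13 S1PR2 rose by 1.32 ± 0.29 and CX3CR1, the fractalkine receptor, changed by -0.98 ± 0.29. GNAI2, a G protein that CXCR4 uses, rose in OCI-AML2 (0.29 ± 0.040) and fell in MOLM-13 (-0.17 ± 0.037), while RGS16 (-0.60 ± 0.091 and 0.53 ± 0.064) and the receptor kinase GRK6 (-0.11 ± 0.046 and 0.24 ± 0.059) went the other way. The CXCR4 ligand CXCL12 and the other CXCL12 receptor, ACKR3, had at most 2 and 3 counts in any library and were not tested.

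PSGL-1 binds selectins only when enzymes have put the right sugars and sulphate on it. Of 26 genes of selectin ligand synthesis and mucins, 9 of 21 tested rose and 6 fell in OCI-AML2 (median 0.08), where 31.3% of all genes rose and 31.8% fell. In MOLM-13, 12 of 22 rose and 3 fell (median 0.17), where 31.8% of all genes moved each way. TPST2 and TPST1 add the tyrosine sulphate that P-selectin reads on PSGL-1. TPST2 rose in OCI-AML2 from 50.4 ± 2.91 to 83.9 ± 2.48 CPM, and in MOLM-13 from 19.4 ± 1.11 to 31.4 ± 2.59 CPM (changes of 0.73 ± 0.064 and 0.70 ± 0.099 in log2), and TPST1 rose by 1.07 ± 0.22 and 1.72 ± 0.31 from lower levels. FUT4, a fucosyltransferase, rose by 0.36 ± 0.041 and 0.82 ± 0.045, ST3GAL6, a sialyltransferase, by 0.71 ± 0.093 and 1.74 ± 0.38, and GCNT1, which branches O-glycans, by 0.64 ± 0.093 and 1.22 ± 0.12. Other genes of these steps did not rise. FUT7, another fucosyltransferase, fell in MOLM-13 from 37.5 ± 2.21 to 30.1 ± 2.41 CPM and did not pass in OCI-AML2. ST3GAL4, another sialyltransferase, and PODXL fell in OCI-AML2, and GALNT1 fell in both lines. C1GALT1, which makes the core O-glycan, fell by 0.31 ± 0.11 and 0.54 ± 0.12, the OCI-AML2 call being lost without vehicle library 1 or selinexor library 1 or 2. ST3GAL3 and the sulphotransferase CHST2 were called lower in OCI-AML2 (-0.80 ± 0.24 and -0.83 ± 0.12) and higher in MOLM-13 (1.28 ± 0.40 and 0.22 ± 0.098), and the MOLM-13 call of CHST2 held in only 3 of 11 alternatives, while the OCI-AML2 call of ST3GAL3 was lost without selinexor library 2.

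Of 20 other integrin subunits, 7 were tested in each line, and 4 rose and 1 fell in OCI-AML2 (median 0.49) and 2 rose and 1 fell in MOLM-13 (median 0.26), where 63.1% and 63.6% of all genes were called. ITGAM, the alpha chain of the myeloid integrin Mac-1, rose by 0.91 ± 0.31 in OCI-AML2 and 1.07 ± 0.31 in MOLM-13, from 1.84 and 1.71 CPM, the OCI-AML2 call being lost without vehicle library 2 or selinexor library 3, and ITGA7, a laminin receptor chain, rose by 0.47 ± 0.082 and 0.91 ± 0.092. ITGAE, the alpha chain that pairs with ITGB7, fell by 0.72 ± 0.094 and 0.74 ± 0.10. ITGAX rose by 1.03 ± 0.25 and ITGB7 by 0.68 ± 0.20 in OCI-AML2, and their MOLM-13 values of 0.50 ± 0.40 and -0.34 ± 0.26 did not pass. ITGAM, ITGAX and ITGAL all use ITGB2 as their beta chain.

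Of 40 genes that switch integrins on or carry their signal, 17 of 35 tested rose and 8 fell in OCI-AML2 (median 0.23), beside 31.3% and 31.8% of all genes. In MOLM-13, 12 of 37 rose and 10 fell (median 0.004), beside 31.8% of all genes each way. With DESeq2, with upper quartile scaling and in the 12-library fit, 5, 2 and 3 of them fell in OCI-AML2. FLNA, the filamin that binds integrin beta tails, rose by 0.86 ± 0.041 and 1.05 ± 0.031, the Src-family kinase FGR by 0.43 ± 0.058 and 1.43 ± 0.31, and PARVG, an adaptor, by 0.39 ± 0.042 and 0.43 ± 0.038. FGR was scarce in MOLM-13, at a mean of 1.52 CPM with vehicle and 4.08 CPM with selinexor. FERMT3, the kindlin that activates leukocyte integrins, rose in OCI-AML2 from 63.5 ± 1.14 to 80.6 ± 2.07 CPM and fell in MOLM-13 from 105 ± 3.34 to 62.1 ± 2.52 CPM, a difference of -1.15 ± 0.085 (edgeR adjusted p = 2.2e-20). SIPA1, which turns the integrin switch Rap1 off, also rose in OCI-AML2, where it went from 129.7 ± 2.76 to 160.0 ± 8.35 CPM, and fell in MOLM-13, from 31.4 ± 1.23 to 17.4 ± 0.880 CPM, a difference of -1.20 ± 0.10 (adjusted p = 2.1e-17). APBB1IP, a Rap1 effector, LIMS1, an adaptor, and SYK, a kinase, were likewise higher in OCI-AML2 and lower in MOLM-13. NEDD9 and SRC rose in OCI-AML2 (0.96 ± 0.10 and 0.79 ± 0.16) and did not pass in MOLM-13 (-0.09 ± 0.20 and -0.22 ± 0.22), with differences of -1.10 ± 0.21 and -1.06 ± 0.27 (adjusted p = 2.5e-05 and 0.0013). RAPGEF3, a Rap1 activator, rose by 2.10 ± 0.42 in MOLM-13 from 0.609 CPM.

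**Figure D4:**
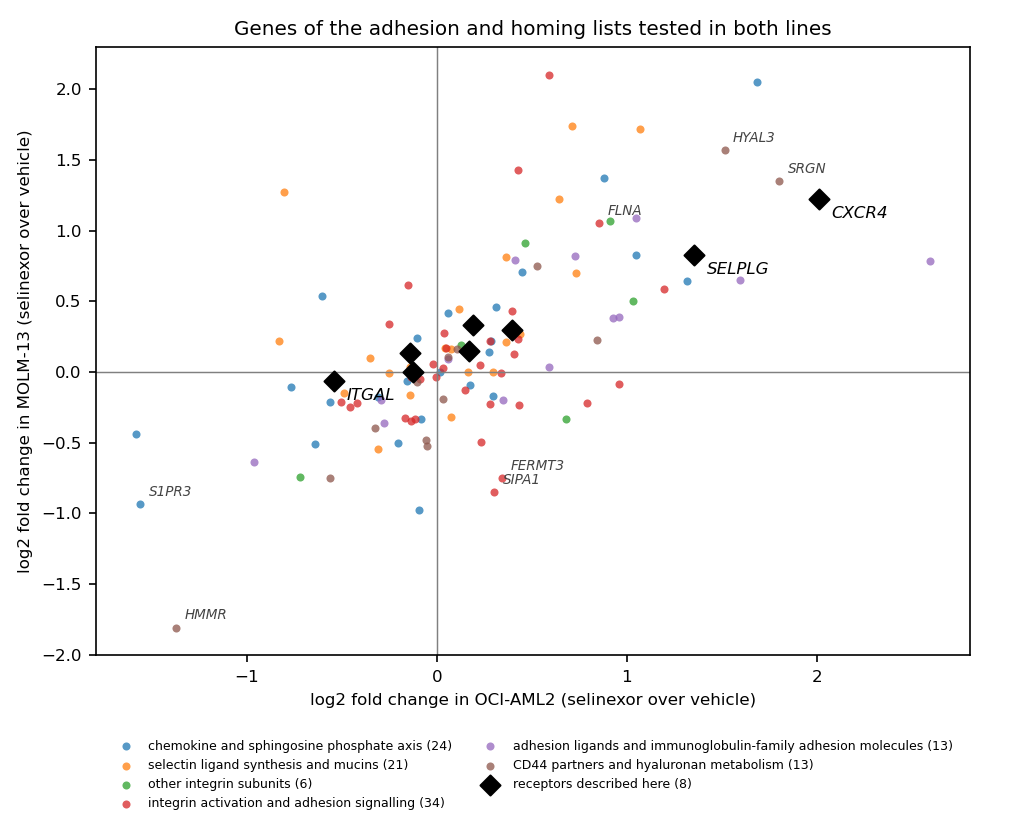
Log2 fold change with selinexor in OCI-AML2 (x) against MOLM-13 (y) for receptor genes and genes of the lists that were tested in both lines; colours mark the lists and each point is 1 gene. CXCR4 and SELPLG lie in the upper right, and FERMT3 and SIPA1 lie in the lower right, higher in OCI-AML2 and lower in MOLM-13.

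Of 28 adhesion molecules that face these receptors or sit beside them in the membrane, 9 of 16 tested rose and 3 fell in OCI-AML2 (median 0.38), beside 31.3% and 31.8% of all genes. In MOLM-13, 8 of 14 rose and 3 fell (median 0.39), beside 31.8% of all genes each way, and 1 fell with upper quartile scaling. ICAM3, an LFA-1 ligand on leukocytes, rose in OCI-AML2 from 7.49 ± 0.400 to 15.5 ± 0.481 CPM, and in MOLM-13 from 38.1 ± 3.21 to 81.4 ± 3.65 CPM. ICAM4 rose by 2.60 ± 0.39 and 0.78 ± 0.15, PECAM1, which serves passage across endothelium, by 0.73 ± 0.065 and 0.82 ± 0.15, and CD82, a tetraspanin, by 1.60 ± 0.069 and 0.65 ± 0.071. JAM3 fell by 0.96 ± 0.23 in OCI-AML2 and by 0.64 ± 0.26 in MOLM-13, the latter call holding in 6 of 11 alternatives, and THBS1 fell by 1.22 ± 0.36 in OCI-AML2, a call lost in the 12-library fit (edgeR adjusted p = 0.196). The JAM3 call was lost with upper quartile scaling, with DESeq2, and without MOLM-13 vehicle library 1 or 2 or selinexor library 1. F11R and ICAM1 rose in MOLM-13 by 0.79 ± 0.11 and 0.57 ± 0.21, the ICAM1 call being lost without vehicle library 2 or selinexor library 2. F11R was also called higher in OCI-AML2, from a mean of 8.86 to 11.8 CPM, a call that held in 7 of 11 alternatives. ICAM1 was scarce in OCI-AML2, at a mean of 0.417 CPM with selinexor. VCAM1, the VLA-4 ligand of stroma, had at most 1 count in any library.

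Of 21 genes for CD44 partners and hyaluronan metabolism, 6 of 15 tested rose and 4 fell in OCI-AML2 (median 0.03), and 6 of 14 rose and 5 fell in MOLM-13 (median 0.01), where 63.1% and 63.6% of all genes were called. SRGN, a proteoglycan of myeloid granules that CD44 binds, rose in OCI-AML2 from 2980.2 ± 79.5 to 10402 ± 368 CPM, and in MOLM-13 from 1265 ± 43.9 to 3219 ± 126 CPM. HMMR, another hyaluronan receptor and a spindle protein, fell by 1.37 ± 0.073 and 1.81 ± 0.079, and HYAL3 rose by 1.51 ± 0.065 and 1.57 ± 0.16. Of the proteins that tie CD44 to actin, EZR fell by 0.56 ± 0.048 and 0.75 ± 0.044 and MSN rose by 0.53 ± 0.037 and 0.75 ± 0.028. MMP9, a protease that docks on CD44, fell from 3.54 ± 0.252 to 0.479 ± 0.272 CPM in OCI-AML2, and its inhibitor TIMP1 rose there by 0.84 ± 0.10. TIMP1 was also called higher in MOLM-13, a call that held in 8 of 11 alternatives (log2 fold change from 0.196 to 0.296).

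The authors' deposited table for MOLM-13 gave, with its sign turned to selinexor over vehicle, log2 fold changes of 1.21 for CXCR4, 0.81 for SELPLG, 0.32 for CD44, 0.28 for ITGA5, 0.13 for ITGB2, 0.12 for ITGA4, -0.08 for ITGAL and -0.01 for ITGB1. It also listed 2.77 for ITGA2B, which rests on 24 counts in all.

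In GENCODE 29 (GRCh38) the members are protein-coding genes on 7 chromosomes: CXCR4 (ENSG00000121966) at chr2:136114349-136118165 and ITGA4 (ENSG00000115232) at chr2:181457202-181536187, ITGB1 (ENSG00000150093) at chr10:32900319-33005792, CD44 (ENSG00000026508) at chr11:35138870-35232402, ITGA5 (ENSG00000161638) at chr12:54395261-54419460 and SELPLG (ENSG00000110876) at chr12:108622277-108633959, ITGAL (ENSG00000005844) at chr16:30472658-30523185, ITGA2B (ENSG00000005961) at chr17:44372180-44389505, and ITGB2 (ENSG00000160255) at chr21:44885953-44931989. The libraries do not keep strand, so where exons of an opposite-strand gene overlap a member, reads of the genes cannot be told apart, and how such reads were counted is not given in the sources used here. Such overlaps measured 415 and 204 exonic bases for ITGAL, 303 for ITGB2, 84 for CD44, 48 for ITGA5 and 42 for ITGB1, out of 6472, 6797, 10004, 7577 and 6011 exonic bases. CXCR4, SELPLG, ITGA4 and ITGA2B had no such overlap in this annotation.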

How the data were processed

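RNA sequencing of 12 libraries was analysed. Poly(A) RNA was sequenced without strand information, per the labels' protocols. The submitters' processing notes name STAR, hg38, R 3.6.1 and DESeq2; which tool counted the reads, and on which gene models, is not given in the sources used here. Whole-number read counts per symbol were deposited by the authors in 1 table per line and, for MOLM-13, a table of log2 fold changes (vehicle over selinexor; sign turned here). Deposited scaled tables were not used. The initial of each table gave the line and the letter of each column the treatment. Library numbers only name columns, in their order, since the headers hold no replicate number.

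edgeR 4.0.16 in R 4.3.3 was run on the counts: TMM scaling, filterByExpr (minimum count 10, minimum total 15), robust quasi-likelihood F tests, and calls at a Benjamini-Hochberg adjusted p under 0.05. The 6 libraries of a line were fitted together; the interaction and the vehicle contrast came from 1 fit of 12 libraries over genes in both tables, so an interaction is not exactly the difference of the line values. CPM is scaled within a line; CPM per kilobase divides by the GENCODE 29 exon union, which assumes that build's gene models. Groups of 3 give an exact permutation test no p below 0.10, so none was used. Alternatives were DESeq2 1.42.0, its size factors, upper quartile scaling, no filter, a 12-library fit and leaving out each library. The procedure was tested on simulated counts.

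The members and lists were chosen with earlier results of these data known. Named list genes are, per list, up to 4 called in both lines by the larger of the smaller absolute changes, up to 2 more per line with mean CPM of at least 1, and all genes of a direction where 5 or fewer moved; not all of the last are printed, and some genes the rule takes are not reported here. FERMT3, APBB1IP, LIMS1, SYK, GNAI2, GRK6, RGS16, MSN and EZR, and the motifs, were chosen after their values were seen. Promoters came from RefSeq.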

Additional observations from a re-analysis of the deposited data

Results flagged for a closer look

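The response to selinexor differed between OCI-AML2 and MOLM-13 for 4 of the 9 members, by the interaction of line and treatment in edgeR's quasi-likelihood test over all genes in both tables. Of the 12530 genes tested, 30.1% differed in this way. Over all genes, libraries did not overlap and were higher for 33.0% in OCI-AML2 and 32.7% in MOLM-13, and lower for 33.3% and 32.8%. CXCR4 rose less in MOLM-13 (interaction -0.84 on the log2 scale), with all 6 selinexor libraries above their line's vehicle libraries. SELPLG also rose less in MOLM-13 (-0.58), again with 6 of 6 selinexor libraries above vehicle. ITGAL had an interaction of 0.43: it fell in 3 of 3 OCI-AML2 libraries and overlapped vehicle in MOLM-13. ITGA4 had an interaction of 0.22, from a small fall in OCI-AML2, where 1 selinexor library lay within the vehicle range, and a small rise in MOLM-13. The lines received different doses, so line and dose cannot be told apart in any of these.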

How the results depend on the processing

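The calls of CXCR4, SELPLG, CD44 and ITGA5 in both lines, of ITGAL, ITGB2 and ITGA2B in OCI-AML2, and of the CXCR4, SELPLG, ITGAL and ITGA4 differences between the lines kept direction and side of the threshold in every alternative run. CXCR4 ranged from 1.96 to 2.06 in OCI-AML2 and from 1.16 to 1.29 in MOLM-13, and its difference from -0.89 to -0.69. The count of members lower in OCI-AML2 was 3, and it was 1 with upper quartile scaling, 1 with the DESeq2 test and 1 in the 12-library fit, and 1 to 3 when a library was left out. The count lower in MOLM-13 was 0, and it was 1 (ITGAL) with no filter and 0 to 1 when a library was left out. The count higher in MOLM-13 with vehicle was 1, and 0 to 1 when a library was left out. The cause of these shifts was not tested. Upper quartile scaling raised the median of all genes by 0.055 in OCI-AML2 and 0.070 in MOLM-13, and the higher share of calls from 49.6 to 56.0% and from 50.0 to 57.8%.

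Some values that passed in no setting crossed 0. For MOLM-13 against OCI-AML2 with vehicle, ITGA5 was -0.00127 with DESeq2 size factors and -0.00131 with the DESeq2 test, and -0.055 to 0.046 with 1 library left out. With upper quartile scaling ITGAL was 0.0065 and ITGB1 0.070 in MOLM-13, although ITGAL passed as lower in 2 settings. CD33 in OCI-AML2 was -0.0101 with no filter. Leaving out 1 library gave, in OCI-AML2, CD33 -0.0521 to 0.0410 and GP1BA -0.18 to 0.43, in MOLM-13, ITGB1 -0.0676 to 0.0610 and NEDD9 -0.28 to 0.0237, for the difference between lines, ITGB2 -0.11 to 0.0346 and ITGA2B -1.13 to 0.23, and for SELPLG with vehicle -0.0045 to 0.086. No paired analysis was possible because the count columns carry no replicate numbers. Depth limits ITGA2B in MOLM-13, where 24 counts in all were seen.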

Other observations

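Over the 12 libraries, the gene whose log2 CPM followed each member most closely was sought among 10285 genes with a mean of at least 5 CPM. The libraries form 4 groups, so these correlations mostly reflect group means and are descriptions. CXCR4 was nearest to SEZ6L2 (Pearson r = 0.995), SELPLG to CAT, the catalase gene (0.988), ITGA5 to NCF1B (0.984) and CD44 to the laminin chain LAMC1 (0.999). ITGB2 was nearest to RTL10 (0.953), while the members that changed least had looser neighbours, ITGA4 with SC5D (0.806) and ITGB1 with AKIRIN1 (0.798). CAT rose by 1.37 ± 0.040 in OCI-AML2 and 0.90 ± 0.039 in MOLM-13, and SEZ6L2 by 2.18 ± 0.10 and 1.12 ± 0.16. These sizes are close to those of SELPLG and CXCR4, which the choice by correlation over the same libraries favours. With vehicle, LAMC1 was lower in MOLM-13 than in OCI-AML2 (log2 difference -5.24 ± 0.079), as was CD44 (-1.84 ± 0.047).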
